A study of Mus musculus with 4 samples.

Results

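CXCR3 and its ligands were described here through 3 genes: Cxcl9 and Cxcl10, which encode secreted chemokines, and Cxcr3, which encodes the receptor they share. They were taken by symbol from the 30406 genes common to all 4 libraries, and every value was given by lineage and by library, where a lineage is a set of cells that passed a gate on raw counts of marker genes. The cells were live CD45.2+ immune cells sorted from mouse brains carrying GL261, a mouse glioma cell line injected into the brain. There were 4 groups with 1 library each. They were IFNaR-/- mice (KO) and WT mice without treatment, both sorted on day 20 after injection, and KO mice and WT mice given anti-PD1, an antibody against the T cell checkpoint receptor PD-1, both sorted on day 25. Anti-PD1 was given into the peritoneum at 200 µg per mouse on days 7, 11, 15 and 19. KO mice lack the receptor for type I interferons, and the labels restrict the loss to no cell type, so a difference in one lineage may arise in that lineage or in another. Cell suspensions were pooled before sorting, from a number of mice that the labels do not state. For the anti-PD1 groups the labels state that CD3+ and CD3- cells were mixed in equal parts. Shares of cells in those libraries thus depend on the sort. Yet T, natural killer and B cells made up 7.97% of kept cells in anti-PD1 KO and 5.65% in anti-PD1 WT. Without treatment they made up 25.4% in KO and 33.6% in WT. The labels give brain as the tissue, though one step of their protocol calls the sorted cells lung cells.

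CXCL9 and CXCL10 are small chemokines that bind CXCR3, a G protein-coupled receptor carried mainly by activated T cells and natural killer cells, and they are known for drawing such cells into inflamed tissue and tumours. Both genes are induced by interferon gamma. Cxcl10 is also known as a target of type I interferon, which acts through a complex that holds STAT2 and IRF9, and of NF-kappa-B. In T cells, Cxcr3 is known to be switched on by the transcription factor T-bet, the product of Tbx21.

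The ligand genes lie 18558 bases apart on the minus strand of chromosome 5 in GRCm38: Cxcl9 (ENSMUSG00000029417) at chr5:92321347-92328079 and Cxcl10 (ENSMUSG00000034855) at chr5:92346638-92348889. Cxcr3 (ENSMUSG00000050232) lies on the minus strand of chromosome X, at chrX:101731535-101734269. A further ligand gene, Cxcl11, is annotated there as a polymorphic pseudogene and was not analysed here.

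The 250 bases before the annotated start of each ligand gene are shown because the ligands differed in how far they were lower without the receptor for type I interferon. They come from RefSeq (GRCm38.p6) and run 5′ to 3′ on the gene's own strand, chr5:92328080-92328329 for Cxcl9 and chr5:92348890-92349139 for Cxcl10. Capitals mark every match on either strand to 3 motifs: a core of the interferon-stimulated response element (ISRE), read as GAAA and GAAA with 2 bases between them; TTCNNNGAA, the gamma-activated site; and a kappa-B site, read as GGGA and CC with 4 bases between them.
Cxcl9: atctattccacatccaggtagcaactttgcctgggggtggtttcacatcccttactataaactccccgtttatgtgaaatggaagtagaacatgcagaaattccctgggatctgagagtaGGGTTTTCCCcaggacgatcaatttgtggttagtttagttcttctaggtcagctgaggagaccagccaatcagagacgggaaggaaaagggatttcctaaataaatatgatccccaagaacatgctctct
Cxcl10: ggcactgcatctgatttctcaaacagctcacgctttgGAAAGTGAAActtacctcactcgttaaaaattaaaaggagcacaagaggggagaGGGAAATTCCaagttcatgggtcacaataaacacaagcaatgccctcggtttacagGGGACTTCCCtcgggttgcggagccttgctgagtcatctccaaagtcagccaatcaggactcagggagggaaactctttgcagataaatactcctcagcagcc
The Cxcl10 window held 1 ISRE match, from 213 to 204 bases before the start, and 2 kappa-B matches, at 159 to 150 and 103 to 94 bases. The Cxcl9 window held 1 kappa-B match, read on the opposite strand, at 130 to 121 bases. No gamma-activated site match was found in either window, and the same window of Cxcr3 held none of the 3 motifs. Of 32851 RefSeq promoters with windows of this length, 2.98% held the ISRE letters, 7.02% the gamma-activated site letters and 17.6% the kappa-B letters. A match is a description of these letters only. Sites that depart from these letters were not searched for, so a window without a match may still hold a response element.

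The libraries held 3705 barcodes in untreated KO, 6662 in untreated WT, 8764 in anti-PD1 KO and 9530 in anti-PD1 WT, with 32410040 to 94732545 UMIs (counted molecules), and 2726, 4982, 7881 and 8742 cells were kept in that order. Median depth was 9482 UMIs per cell in untreated KO, 7110.5 in untreated WT, 4920 in anti-PD1 KO and 8448 in anti-PD1 WT. With 1 library per group no test can be made and no p-value is given. Intervals are 95% and, like the floors given for counts of 0, cover counting error only. The anti-PD1 libraries stood apart from each other and from the untreated pair: T cells held 0.0807 UMIs of Trb variable and joining segments per UMI of Trb constant regions in anti-PD1 KO and 3.25 in anti-PD1 WT, against 0.0104 in untreated KO and 0.00964 in untreated WT. The labels name one 5′ kit for all libraries. The genotype difference after anti-PD1, and any difference between anti-PD1 and untreated, cannot be told apart from this difference between libraries, and the untreated pair is given first. The anti-PD1 libraries shared 95 barcodes and other pairs 0 to 3. Without the shared barcodes the anti-PD1 KO/WT log2 differences in monocytes and macrophages were -0.29 for Cxcl9 and -2.30 for Cxcl10, against -0.30 and -2.30 with them, and that of Cxcr3 in CD8 T cells was -1.65, against -1.61. Ifnar1 counts did not mark the genotype (134 CPM in KO and 128 in WT monocytes and macrophages, untreated), and the labels do not give the deleted part. Isg15, a gene known to depend on type I interferon, stood at 93.4 CPM in KO and 975 CPM in WT cells without treatment, and at 58.5 CPM in KO and 1054 CPM in WT cells after anti-PD1, where CPM is a gene's UMIs per 1000000 UMIs of the cells summed. The sorted cells carried the leukocyte marker Ptprc in 92.2% of untreated KO and 93.9% of untreated WT cells, and in 73.2% of anti-PD1 KO and 84.3% of anti-PD1 WT cells, and P2ry12 and Tmem119, genes of brain-resident microglia, were seen in 11.4% to 25.6% of cells of a library. Gfap, Olig1, Cldn5, Col1a1 and Pdgfrb, genes of other brain cells, vessels and fibroblasts, were each seen in 0.0367% to 2.02% of cells of a library.

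Monocytes and macrophages, myeloid cells that enter the tumour from blood and mature there, held most of both ligand transcripts in every library. They held 79.1% of the Cxcl9 UMIs in untreated KO and 81.9% in untreated WT, and 92.7% in anti-PD1 KO and 94.2% in anti-PD1 WT. Of the Cxcl10 UMIs they held 61.1% in untreated KO and 79.7% in untreated WT, and 68.0% in anti-PD1 KO and 84.7% in anti-PD1 WT. The Cxcl10 share of this lineage was thus lower in both KO libraries, while its Cxcl9 share differed little between genotypes. Microglia, the resident macrophages of the brain, together with cells between the microglia and macrophage gates, held more of it in KO: 22.6% of Cxcl10 UMIs in untreated KO and 7.31% in untreated WT, and 27.7% in anti-PD1 KO and 11.0% in anti-PD1 WT. Their share of kept cells was 9.24% in untreated KO and 7.29% in untreated WT, and 17.3% in anti-PD1 KO and 8.17% in anti-PD1 WT. T, natural killer and B cells held 6.03% of Cxcl10 UMIs in untreated KO and 2.84% in untreated WT. Dendritic cells, which present antigen to T cells, held 10.9% of Cxcl9 UMIs in untreated KO and 9.86% in untreated WT. In the anti-PD1 libraries, with 62 KO and 64 WT dendritic cells, they held 0.632% in KO and 0.720% in WT.

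**Figure D1:**
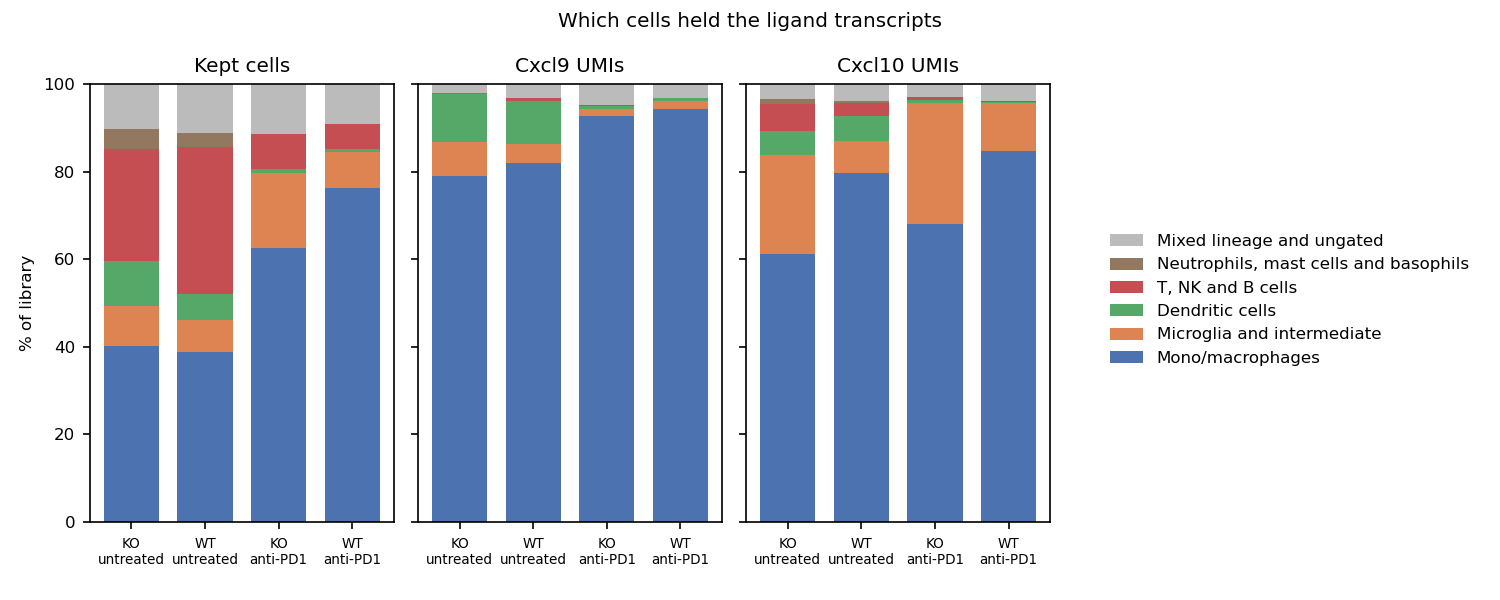
Share of each library, in %, that fell to each block of gated classes: kept cells (left), Cxcl9 UMIs (middle) and Cxcl10 UMIs (right), with 1 bar per library and no error, since each bar is a share of 1 library. Monocytes and macrophages hold 79.1% to 94.2% of Cxcl9 UMIs, and the microglia and intermediate block holds 22.6% and 27.7% of Cxcl10 UMIs in the KO libraries against 7.31% and 11.0% in the WT libraries.

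Cxcl9 differed modestly between genotypes in monocytes and macrophages. Its level was 1040.3 (1022 to 1058) CPM in 1095 untreated KO cells and 1376 (1358 to 1395) CPM in 1938 untreated WT cells. After anti-PD1 it was 638 (629 to 646) CPM in 4925 KO cells and 786 (779 to 793) CPM in 6669 WT cells. Both KO libraries were below their WT library, with log2 differences of -0.40 (-0.44 to -0.37) without treatment and -0.30 (-0.32 to -0.28) after anti-PD1. Without treatment, 40.5% of KO and 52.9% of WT cells held a Cxcl9 UMI, at median depths of 10562 and 7372 UMIs in KO and WT cells. After anti-PD1, 42.4% of KO and 68.0% of WT cells held one, at 5526 UMIs in KO and 8991 UMIs in WT cells. With each cell thinned to 1000 UMIs the shares were 26.0% of KO and 34.3% of WT cells untreated, and 25.4% of KO and 36.5% of WT cells after anti-PD1. The order of the genotypes was the same at equal depth. The transcript was concentrated in few cells: the tenth of the cells with the most Cxcl9 held 75.9% of it in untreated KO and 64.0% in untreated WT, and 71.9% in anti-PD1 KO and 50.9% in anti-PD1 WT. Single cells reached 270 UMIs in untreated KO and 233 in untreated WT.

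Cxcl10 was several-fold lower without the receptor in the same cells. It stood at 234 (226 to 243) CPM in KO and 1329 (1311 to 1347) CPM in WT monocytes and macrophages without treatment, 5.67-fold lower in KO, a log2 difference of -2.50 (-2.56 to -2.45). After anti-PD1 it stood at 160.1 (156 to 164) CPM in KO and 786 (779.6 to 793) CPM in WT cells, 4.91-fold lower in KO, a log2 difference of -2.30 (-2.34 to -2.26). The share of cells with a Cxcl10 UMI was 32.0% in untreated KO and 57.7% in untreated WT, and 16.9% in anti-PD1 KO and 51.4% in anti-PD1 WT. Thinned to 1000 UMIs, it was 12.4% and 36.8% in untreated KO and WT cells, and 7.77% and 28.0% in anti-PD1 KO and WT cells. Fewer KO cells held the transcript. The tenth of cells with the most Cxcl10 held 80.0% of it in untreated KO and 62.6% in untreated WT, and 92.6% in anti-PD1 KO and 66.7% in anti-PD1 WT. That share is taken over all cells without thinning and rises as fewer cells hold the transcript. It does not describe the spread among cells that hold it. The log2 difference of Cxcl10 was below that of Cxcl9 by 2.10 (2.03 to 2.16) without treatment and by 1.995 (1.95 to 2.04) after anti-PD1. Without treatment 1 of the 2 members measured, Cxcl10, was at least 2-fold lower in KO, a size that 4.29% of 10645 genes reached, counting genes with 50 or more UMIs in both libraries together. After anti-PD1, 2 of 3 members did, Cxcl10 and Cxcr3, against 7.35% of 12185 genes. The median gene of the anti-PD1 pair differed by 0.15 on the log2 scale in these cells, by 0.27 in microglia and by 0.20 in CD8 T cells, higher in KO each time, which is to be subtracted from each anti-PD1 difference to give it relative to the median gene.

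**Figure D2:**
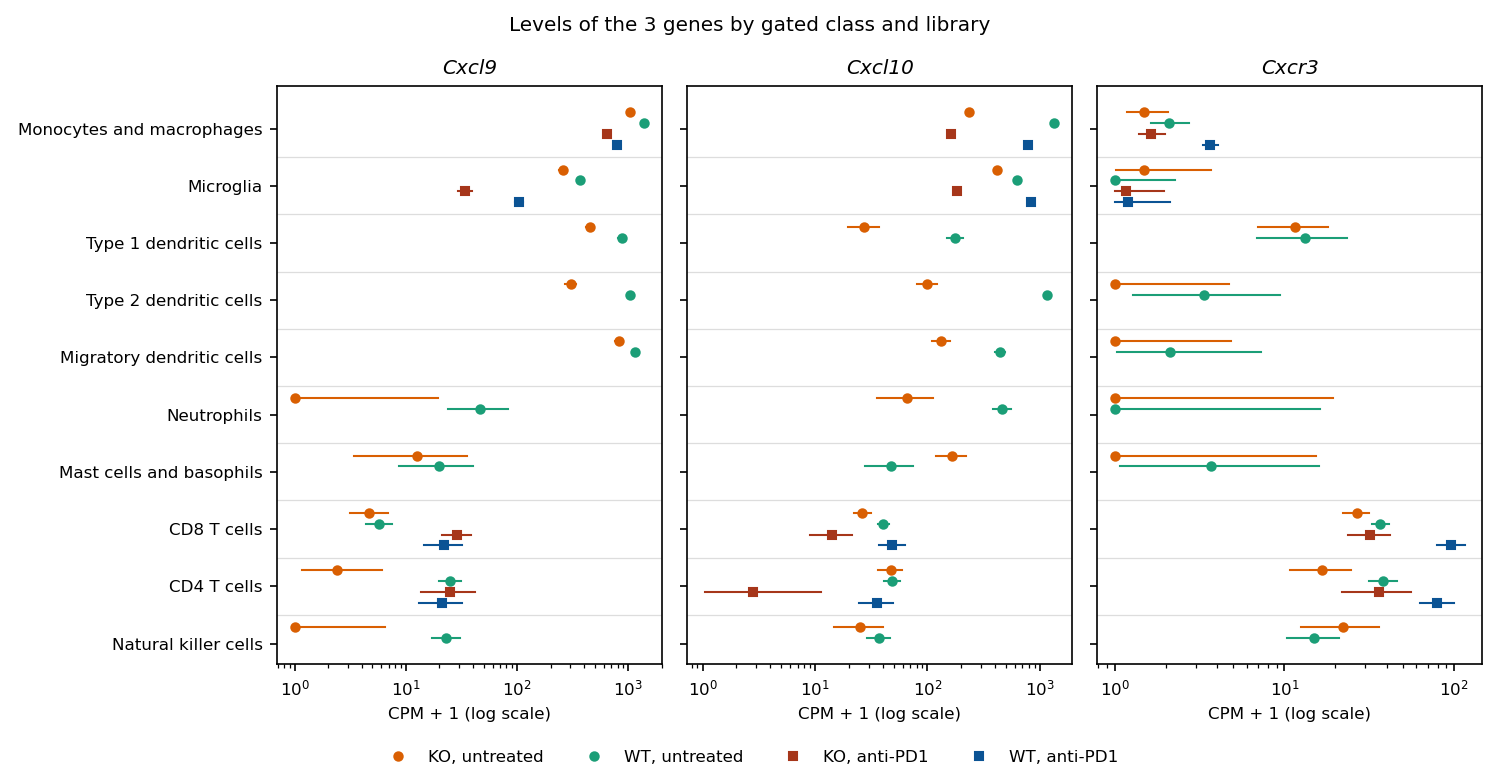
Level of the 3 genes as CPM + 1 on a log axis, with 1 row per gated class and 1 symbol per library (circles untreated, squares anti-PD1) and 95% Poisson intervals as lines, for classes of at least 50 cells. Cxcl9 is highest in monocytes and macrophages, microglia and dendritic cells. Cxcl10 is highest in monocytes and macrophages or in microglia. For Cxcl10, mast cells and basophils of untreated KO (163 CPM) lie above migratory dendritic cells (131 CPM), with overlapping intervals. So do neutrophils of untreated WT (462 CPM against 442 CPM). Cxcr3 is highest in T and natural killer cells, and the anti-PD1 WT library is highest in T cells.

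The mix of the ligands differed with genotype in some lineages more than in others. Cxcl9 made up 81.6% of the summed UMIs of both ligands in untreated KO and 50.9% in untreated WT monocytes and macrophages, and 79.9% in KO and 49.99% in WT after anti-PD1. Thus WT cells held about equal numbers of both transcripts under either condition and KO cells mostly Cxcl9. In microglia Cxcl9 was the minor ligand in all 4 libraries, at 38.3% in untreated KO, 37.1% in untreated WT, 15.3% in anti-PD1 KO and 11.0% in anti-PD1 WT. Type 1 dendritic cells, the subset that presents antigen to CD8 T cells, leaned furthest towards Cxcl9, at 94.5% in untreated KO, where their Cxcl10 was no higher than in T cells, and 83.2% in untreated WT.

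Within monocytes and macrophages, the cells with the most Cxcl9 also held the most Cxcl10 in each library. Cells were split by their own Cxcl9 level into those with none, under 500, 500 to 2000 and over 2000 CPM. In untreated KO, Cxcl10 was 101, 312, 309.9 and 510.2 CPM over these bins. In untreated WT it was 999.6, 987, 1091 and 2386 CPM. In anti-PD1 KO it was 85.0, 151, 231 and 448 CPM, and in anti-PD1 WT 444, 691, 949 and 1446 CPM. Untreated KO cells in the highest Cxcl9 bin thus held less Cxcl10 than untreated WT cells with no Cxcl9 UMI, and after anti-PD1 the same sets had overlapping intervals. Cells with more UMIs have more chances to show both, so co-detection was also read after thinning to 1000 UMIs. Cxcl10 was then seen in 22.1% of untreated KO cells with Cxcl9 and 9.55% of those without. In untreated WT the shares were 44.2% and 31.1%, in anti-PD1 KO 13.8% and 5.11%, and in anti-PD1 WT 34.5% and 23.2%.

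**Figure D3:**
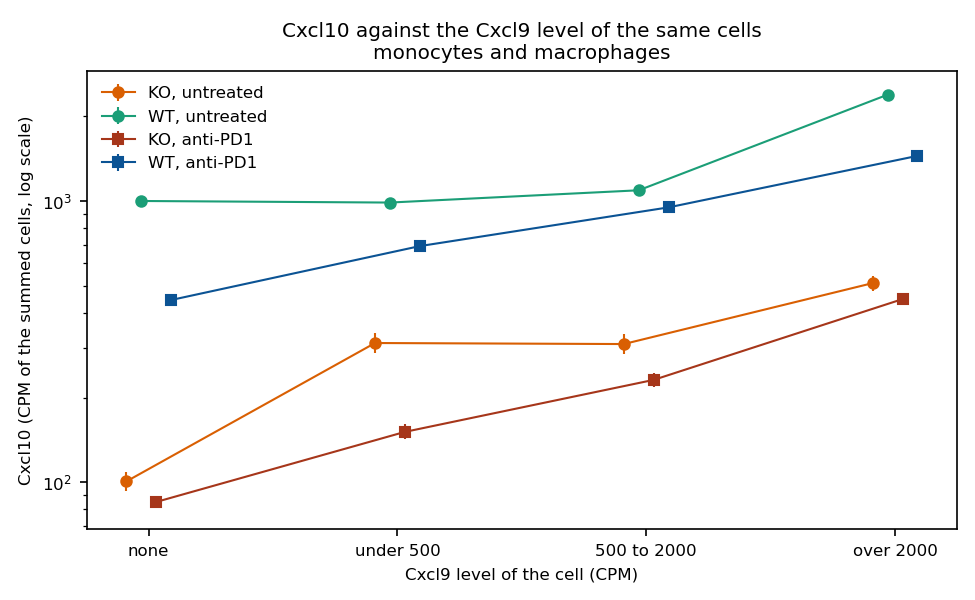
Cxcl10 level (CPM of the summed cells, log axis) in monocytes and macrophages binned by the Cxcl9 level of the same cell (CPM), with 1 line per library and 95% Poisson intervals. Both KO lines, from 85.0 to 510 CPM, lie below both WT lines in every bin, and the highest Cxcl9 bin has the most Cxcl10 in each library.

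Monocytes and macrophages were next split by markers of their state, each splitting the same cells again: Ly6c2 of newly arrived monocytes, Nos2, Arg1, Retnla and Chil3 of activated or repair-type macrophages, and the summed C1q genes of mature macrophages. Cells with at least 3 UMIs of a marker were set against cells with 0 (for C1q, at least 30 against fewer), which gave 20 splits by state and treatment with at least 50 cells in both genotypes. Cxcl10 was at least 2-fold lower in KO cells in 20 of the 20, which overlap. The smallest difference was in C1q-high cells without treatment, 203 CPM in KO cells and 702 CPM in WT cells, a log2 difference of -1.79 (-1.87 to -1.70). The largest was in Chil3+ cells without treatment, 183 CPM in KO cells and 2133 CPM in WT cells, a log2 difference of -3.54 (-3.64 to -3.45). Cxcl9 was lower in KO cells in 18 of the 20 and at least 2-fold lower in 1, the anti-PD1 cells with Arg1 at 0, with 364 CPM in KO cells and 742 CPM in WT cells, a log2 difference of -1.03 (-1.09 to -0.97). It was higher in KO cells in 2 splits. In Ly6c2+ cells without treatment it stood at 1602 CPM in KO cells and 1298 CPM in WT cells, a log2 difference of 0.30 (0.23 to 0.37), over 94 KO and 1206 WT cells. In Nos2+ cells after anti-PD1 it stood at 1635 CPM in KO cells and 984 CPM in WT cells, a log2 difference of 0.73 (0.68 to 0.78), over 232 KO and 1818 WT cells. The states were unequally filled: Ly6c2+ cells made up 8.58% of untreated KO and 62.2% of untreated WT monocytes and macrophages, and 0.548% of KO and 46.6% of WT after anti-PD1.

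**Figure D4:**
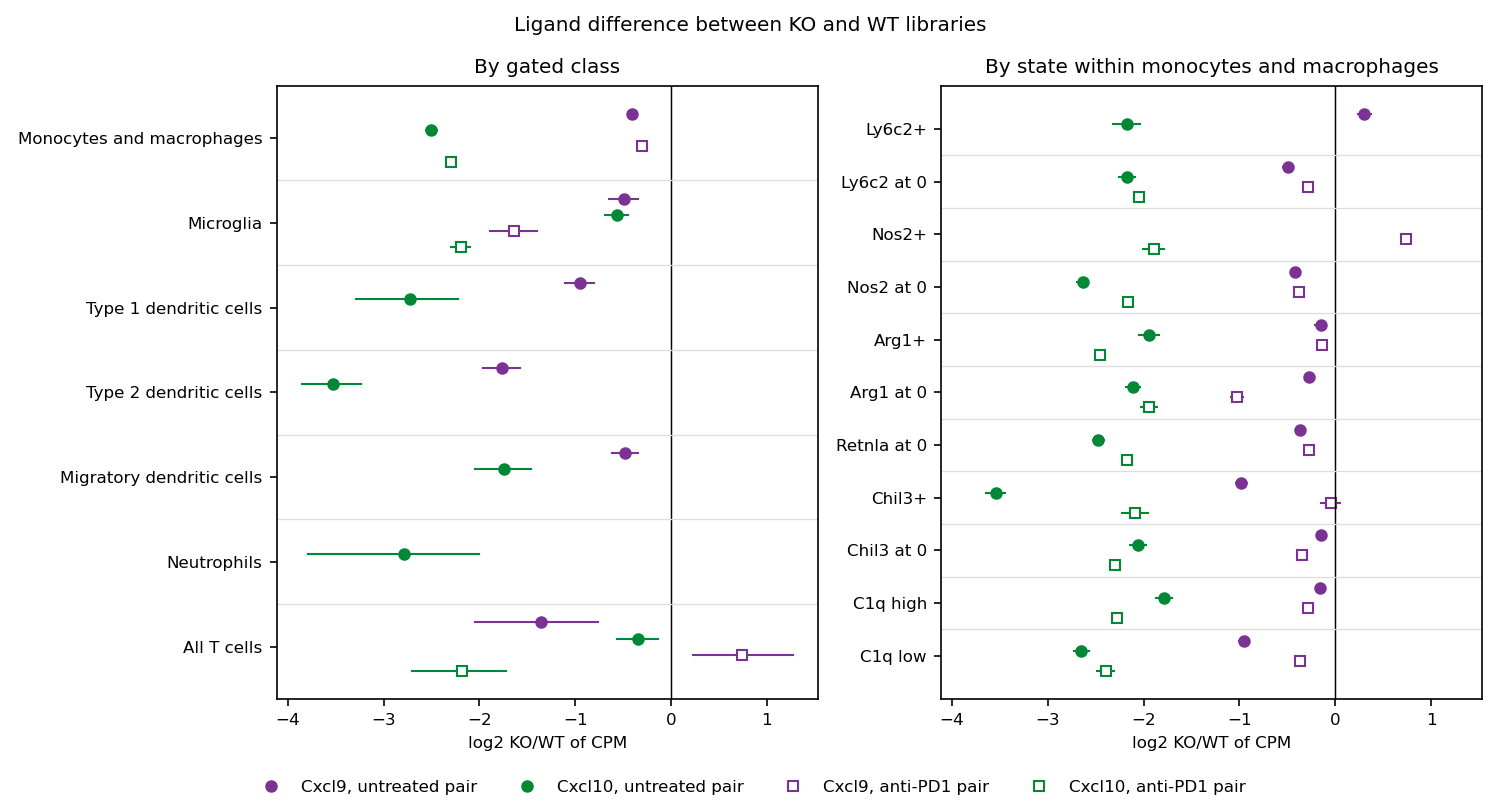
Log2 ratio KO/WT of the CPM of Cxcl9 (purple) and Cxcl10 (green) by gated class (left) and by state within monocytes and macrophages (right), filled circles for the untreated and open squares for the anti-PD1 pair, with 95% counting intervals and a line at 0. Every Cxcl10 point of the right panel lies between -3.54 and -1.79, while the Cxcl9 points run from -1.03 to 0.73.

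Microglia held both ligands at lower Cxcl9 levels than monocytes and macrophages. Cxcl10 stood at 418 (390.4 to 447) CPM in 222 KO and 619.8 (591 to 649) CPM in 349 WT microglia without treatment, a log2 difference of -0.57 (-0.69 to -0.45). After anti-PD1 it stood at 182 (171 to 193) CPM in 962 KO and 832 (807 to 857) CPM in 498 WT microglia, a difference of -2.19 (-2.29 to -2.10). Untreated KO microglia therefore held more Cxcl10 than untreated KO monocytes and macrophages, whereas the untreated WT cells had the opposite order. The log2 difference between genotypes in microglia exceeded that in monocytes and macrophages by 1.93 (1.80 to 2.06) without treatment and by 0.10 (-0.003 to 0.21) after anti-PD1. Neither ligand was 2-fold lower in untreated KO microglia, where 2.27% of genes were, and both were after anti-PD1, where 4.68% were. The untreated value depends on the weighting of cells: it was -0.05 with cells thinned to 1000 UMIs and -0.83 without the 10 cells with the most UMIs of the gene in each library. Cxcl9 stood at 259 (238 to 282) CPM in KO and 365 (344 to 388) CPM in WT microglia without treatment, and 44.1% of the KO value came from 1 cell with 237 UMIs. A Cxcl9 UMI was seen in 9.91% of KO and 27.5% of WT microglia, and after thinning in 5.56% of KO and 11.6% of WT. The log2 difference was -0.50 (-0.65 to -0.35) with all cells and -3.74 without the 10 highest cells in each library. After anti-PD1 Cxcl9 stood at 32.9 (28.4 to 38.0) CPM in KO and 103 (94.3 to 112) CPM in WT microglia, a difference of -1.64 (-1.89 to -1.40), which lay below that of monocytes and macrophages by 1.34 (1.10 to 1.58). The KO value overlapped that of T cells in the same library, 31.0 (24.7 to 38.6) CPM. A single cell held 19.4% of the Cxcl9 UMIs of anti-PD1 KO microglia.

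Dendritic cells of the untreated libraries held less Cxcl9 than monocytes and macrophages, and the 3 subsets compared held less of both ligands in KO. In type 1 dendritic cells Cxcl9 stood at 449 (416 to 484) CPM in 87 KO and 871 (808 to 937) CPM in 50 WT cells, a log2 difference of -0.95 (-1.11 to -0.80). Their Cxcl10 stood at 26.3 (18.8 to 35.8) CPM in KO and 176 (148 to 207) CPM in WT, a difference of -2.73 (-3.28 to -2.23), which was -4.17 with a stricter gate. Untreated KO T cells held 36.4 CPM of Cxcl10, so the KO value of type 1 dendritic cells was not above that of T cells. Their Cxcl9 difference reached 2-fold with a stricter gate (-1.12), with stricter cell filters (-1.13) and with cells of equal weight (-1.01). Of the 2 members measured there, Cxcl10 was at least 2-fold lower, as were 3.36% of genes. Type 2 dendritic cells, which mainly present to CD4 T cells, had a Cxcl10 difference of -3.53 (-3.85 to -3.24), with 98.9 (80.3 to 121) CPM in 86 KO and 1149.8 (1079 to 1224) CPM in 80 WT cells. Their Cxcl9 stood at 304 (271 to 340.3) CPM in KO and 1036 (969 to 1107) CPM in WT, a difference of -1.77 (-1.96 to -1.58). Without the 10 cells with most UMIs of the gene in each library these differences were -4.31 for Cxcl10 and -3.11 for Cxcl9, and that of Cxcl10 was -2.93 with cells thinned to 1000 UMIs. Both ligands were thus at least 2-fold lower, against 3.95% of genes. Migratory dendritic cells, mature cells marked by Ccr7 and Ccl22, held 819.8 (764 to 879) CPM of Cxcl9 in 79 KO and 1141 (1072 to 1214) CPM in 108 WT cells, a difference of -0.48 (-0.61 to -0.34). Their Cxcl10 stood at 131 (109.6 to 156) CPM in KO and 442 (399 to 488) CPM in WT, a difference of -1.75 (-2.05 to -1.46), with 4.08% of genes at least 2-fold lower. The migratory Cxcl9 difference ran from -1.20, without the 10 highest cells, to -0.11, with a stricter gate, and that of Cxcl10 was -2.45 without the 10 highest cells. Plasmacytoid dendritic cells, the lineage known for making type I interferon, held almost none of either ligand: 0 Cxcl10 UMIs in 27 KO cells, which allows up to 12.01 CPM, and 5 UMIs in 53 WT cells.

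In order of level among classes of at least 50 cells, Cxcl9 of the untreated KO library was highest in monocytes and macrophages, then in migratory, type 1 and type 2 dendritic cells and microglia, with overlapping intervals for type 2 dendritic cells and microglia. In untreated WT the order was monocytes and macrophages, migratory, type 2 and type 1 dendritic cells, and microglia, with overlapping intervals for migratory and type 2 dendritic cells. By thinned share of cells with a Cxcl9 UMI the WT order differed. Type 1 dendritic cells came first at 40.0%, then monocytes and macrophages at 34.3%. Type 2 dendritic cells followed at 26.25%, migratory dendritic cells at 22.6% and microglia at 11.6%. Cxcl10 of untreated KO was highest in microglia, then in monocytes and macrophages, with the other classes of that size below them. In untreated WT it was highest in monocytes and macrophages, then in type 2 dendritic cells and microglia, with neutrophils and migratory dendritic cells after them at overlapping intervals, and type 1 dendritic cells below those. For Cxcl10, microglia thus ranked first of these classes in KO and below 2 of them in WT. The cells between the microglia and macrophage gates were too few to rank, with 1469 CPM of Cxcl9 and 429 CPM of Cxcl10 in 30 KO cells, and 448 CPM of Cxcl9 and 658 CPM of Cxcl10 in 14 WT cells.

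Neutrophils of the untreated libraries held Cxcl10 at 64.6 (34.4 to 110.4) CPM in 73 KO and 462 (380.1 to 555) CPM in 66 WT cells, a log2 difference of -2.79 (-3.79 to -2.005) on 13 KO and 112 WT UMIs. Among classes of at least 50 cells in both untreated libraries, only mast cells and basophils had more Cxcl10 in KO, 163 (118 to 220.5) CPM in 52 KO and 46.0 (26.8 to 73.6) CPM in 91 WT cells. That rested on 42 KO and 17 WT UMIs, of which 1 cell held 40.5% in KO and 1 cell 41.2% in WT.

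T cells, which are not known as a main source of either ligand, are given as a comparison for low ligand counts. They are not a floor: plasmacytoid dendritic cells of untreated KO held 0 Cxcl10 UMIs in 27 cells, which allows up to 12.01 CPM. Whether the ligand UMIs of T cells came from other cells was not tested. Cxcl9 stood at 3.54 CPM in untreated KO and 9.24 CPM in untreated WT T cells, and at 31.0 CPM in anti-PD1 KO and 18.5 CPM in anti-PD1 WT. Thinned, 0.650% to 3.22% of T cells per library held a Cxcl9 UMI, against 25.4% to 36.5% of monocytes and macrophages. Cxcl10 in T cells stood at 36.4 CPM in untreated KO and 46.4 CPM in untreated WT, and at 16.5 CPM in anti-PD1 KO and 75.7 CPM in anti-PD1 WT. That anti-PD1 log2 difference of -2.19 was -1.37 without the barcodes found in more than 1 library. The ligands were in another ratio in T cells than in monocytes and macrophages: Cxcl9 made up 8.87% of both in untreated KO and 16.6% in untreated WT T cells, and 65.3% in anti-PD1 KO and 19.6% in anti-PD1 WT. Natural killer cells held 0 Cxcl9 UMIs in 63 untreated KO cells, which allows up to 4.51 CPM (3 counts), and 46 UMIs in 288 untreated WT cells, of which 1 cell held 65.2%.

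Over all kept cells, Cxcl9 stood at 565 CPM in untreated KO and 638 CPM in untreated WT, and Cxcl10 at 165 CPM in KO and 633 CPM in WT. Setting the KO class levels on the WT make-up of classes gave 467 CPM of Cxcl9 and 148 CPM of Cxcl10 in KO, both further below WT. This holds the gated classes equal. States within a class, such as Ly6c2+ cells among monocytes and macrophages, were not held equal. After anti-PD1 the values over all cells were 477 CPM of Cxcl9 in KO and 673 CPM in WT, and 163 CPM of Cxcl10 in KO and 748 CPM in WT. On the WT make-up the anti-PD1 KO levels were 545 CPM of Cxcl9, nearer to WT, and 159 CPM of Cxcl10, slightly further from WT. Cxcr3 stood at 7.97 CPM in KO and 15.8 CPM in WT without treatment, and its KO level on the WT make-up was 10.6 CPM, with 25.4% of KO and 33.6% of WT cells being T, natural killer or B cells.

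Cxcr3 was found mainly in lymphocytes, which held 85.2% of its UMIs in untreated KO and 87.5% in untreated WT, and 60.4% in anti-PD1 KO and 50.7% in anti-PD1 WT. In CD8 T cells, which kill target cells, it stood at 25.6 (21.2 to 30.7) CPM in KO (118 UMIs in 365 cells) and 35.8 (31.8 to 40.2) CPM in WT (289 UMIs in 670 cells) without treatment. The log2 difference was -0.48 (-0.80 to -0.17), and neither Cxcr3 nor a ligand was at least 2-fold lower there, where 1.19% of genes were. After anti-PD1 it stood at 30.9 (22.7 to 41.1) CPM in KO (47 UMIs in 361 cells) and 95.2 (78.5 to 114) CPM in WT (114 UMIs in 215 cells), a difference of -1.61 (-2.14 to -1.12), with 5.73% of genes at least 2-fold lower. The anti-PD1 WT library was thus above the other 3, whose intervals lay between 21.2 and 41.1 CPM. In CD4 T cells, helper cells without the regulatory marker Foxp3, Cxcr3 stood at 15.6 (9.77 to 23.6) CPM in KO and 37.2 (30.5 to 44.9) CPM in WT without treatment, a difference of -1.23 (-1.99 to -0.58) on 22 KO and 109 WT UMIs, where 2.01% of genes were at least 2-fold lower. After anti-PD1 it stood at 34.9 (21.0 to 54.5) CPM in KO and 78.4 (61.7 to 98.3) CPM in WT CD4 T cells, a difference of -1.14 (-1.98 to -0.43) where 6.46% of genes were at least 2-fold lower. With cells thinned to 1000 UMIs that difference was -0.18, and without the 10 cells with the most Cxcr3 the untreated one was -3.34. Regulatory T cells, a restraint on other T cells, held 54.3 (33.6 to 83.0) CPM in 45 KO and 46.3 (34.7 to 60.6) CPM in 124 WT cells without treatment. After anti-PD1 they held 26.9 (8.73 to 62.7) CPM in 36 KO and 107 (79.2 to 142) CPM in 61 WT cells. The untreated KO and WT intervals of regulatory T cells overlapped. In order of level, regulatory T cells stood above CD8 and CD4 T cells in untreated KO, where the intervals of CD8 and CD4 T cells overlapped, and in the other 3 libraries the intervals of all these classes overlapped.

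Over all T cells, 20.3% of untreated KO and 28.5% of untreated WT cells held a Cxcr3 UMI, and 11.8% of anti-PD1 KO and 34.1% of anti-PD1 WT cells. Thinned to 1000 UMIs the shares were 2.11% in untreated KO and 4.50% in untreated WT, and 3.05% in anti-PD1 KO and 11.1% in anti-PD1 WT, so KO was lower in both pairs at equal depth. The transcript is sparse, at most 7 UMIs in a cell, and a cell without a UMI may still express it. Microglia held 1 UMI in 222 untreated KO cells and 0 in 349 untreated WT cells, which allows up to 1.03 CPM, and 1 UMI each in 962 anti-PD1 KO and 498 anti-PD1 WT cells, at median depths of 8112, 6997, 5439.5 and 8708 UMIs in that order. Natural killer cells, innate killers seen in number only without treatment, held 21.0 (11.5 to 35.3) CPM in 63 KO and 13.9 (9.30 to 19.9) CPM in 288 WT cells, with overlapping intervals. Outside lymphocytes, type 1 dendritic cells held 10.5 (6.02 to 17.1) CPM in KO and 12.2 (5.86 to 22.5) CPM in WT, and plasmacytoid dendritic cells 12.01 (2.48 to 35.1) CPM in KO and 21.1 (10.5 to 37.8) CPM in WT, again with overlapping intervals, while type 2 dendritic cells held 0 UMIs in KO, which allows up to 3.03 CPM, and 2 in WT.

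Monocytes and macrophages of the anti-PD1 WT library held 179 Cxcr3 UMIs, 32.8% of that library's, in 160 of 6669 cells. Those of anti-PD1 KO held 21, those of untreated KO 6 and those of untreated WT 17. Cells that also passed the T cell gate were set apart from this class. Here Cxcr3 UMIs per UMI of Cd3e, a T cell gene, were 0.231 in untreated KO and 0.227 in untreated WT. They were 0.538 in anti-PD1 KO and 5.59 in anti-PD1 WT, the last on 32 Cd3e UMIs. In T cells the values were 0.0419 in untreated KO, 0.0522 in untreated WT, 0.0456 in anti-PD1 KO and 0.0714 in anti-PD1 WT. A part of T cell RNA in these counts was not tested.

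T cells with Havcr2 or Pdcd1, genes of inhibitory receptors on chronically activated T cells, had a lower Cxcr3 CPM than those without in all 4 libraries. For Havcr2, which encodes TIM-3, cells with at least 1 UMI had 18.3 CPM of Cxcr3 and cells with 0 had 38.9 CPM in untreated KO, and 25.8 and 64.0 CPM in untreated WT. In anti-PD1 KO the values were 18.9 CPM with and 39.2 CPM without Havcr2, and in anti-PD1 WT 61.6 CPM with and 123 CPM without. The log2 differences, -1.09 (-1.52 to -0.65), -1.31 (-1.56 to -1.06), -1.02 (-1.91 to -0.27) and -0.99 (-1.40 to -0.61) in the same order, all lay below 0. Cells with Havcr2 were deeper, with medians of 11400 against 7309 UMIs in untreated KO and 10579 against 6698 in untreated WT, yet also held fewer Cxcr3 UMIs per cell, 0.255 against 0.352 in untreated KO and 0.329 against 0.498 in untreated WT. Pdcd1, which encodes PD-1, gave -0.72 (-1.16 to -0.25) in untreated KO, -0.88 (-1.13 to -0.62) in untreated WT, -0.86 (-1.51 to -0.18) in anti-PD1 KO and -0.69 (-1.05 to -0.32) in anti-PD1 WT. Cells with Pdcd1 also held fewer Cxcr3 UMIs per cell, 0.280 against 0.322 in untreated KO and 0.364 against 0.472 in untreated WT. Within CD8 T cells alone the differences were also below 0, but 4 of the 8 intervals included 0. For Pdcd1 these were -0.51 (-1.17 to 0.25) in untreated KO and -0.36 (-0.97 to 0.34) in anti-PD1 WT, where 161 cells with Pdcd1 held 87 Cxcr3 UMIs and 54 cells without held 27. For Havcr2 they were -0.61 (-1.19 to 0.01) in untreated KO and -0.74 (-1.82 to 0.18) in anti-PD1 KO. Cxcr6, a chemokine receptor gene, gave 0.82 (0.18 to 1.55) in untreated KO and 0.60 (0.13 to 1.14) in untreated WT CD8 T cells. In anti-PD1 KO it gave -0.96 (-1.94 to 0.27). Over all T cells, Cxcr6, Ifng and the cycling genes Mki67 or Top2a also gave values below 0 in all 4 libraries. Ifng gave -0.32 (-0.78 to 0.17) in untreated KO and -0.89 in untreated WT. The cycling genes gave -0.90 in untreated KO and -0.08 (-0.85 to 0.60) in anti-PD1 KO. For Tbx21, whose product switches Cxcr3 on, cells with a UMI had a lower Cxcr3 CPM in 3 libraries, with log2 differences of -0.63 (-1.08 to -0.19) in untreated KO, -0.61 (-0.86 to -0.35) in untreated WT and -0.54 (-0.89 to -0.19) in anti-PD1 WT. In anti-PD1 KO the difference was 0.08 (-0.59 to 0.73). Their Cxcr3 UMIs per cell differed less, 0.286 with and 0.301 without Tbx21 in untreated KO and 0.384 with and 0.420 without in untreated WT. Cells with Tcf7, Lef1 or S1pr1, genes known from naive and memory T cells, had more Cxcr3 in the WT libraries, by 0.60 (0.34 to 0.85) untreated and 0.62 (0.26 to 0.98) after anti-PD1. The KO intervals of that split included 0, at -0.20 (-0.65 to 0.23) untreated and 0.46 (-0.25 to 1.12) after anti-PD1. Within untreated CD8 T cells the split gave -0.74 (-1.38 to -0.16) in KO and 0.38 (0.01 to 0.74) in WT. Over all T cells, those with Gzmc or Gzmf, granzyme genes of effector cells, gave -1.26 (-1.76 to -0.79) in untreated KO and -0.57 (-0.84 to -0.31) in untreated WT. Their Cxcr3 UMIs per cell were 0.228 against 0.333 without in untreated KO. In untreated WT the order was reversed per cell, 0.422 with and 0.396 without, at median depths of 11828 and 7608 UMIs.

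**Figure D5:**
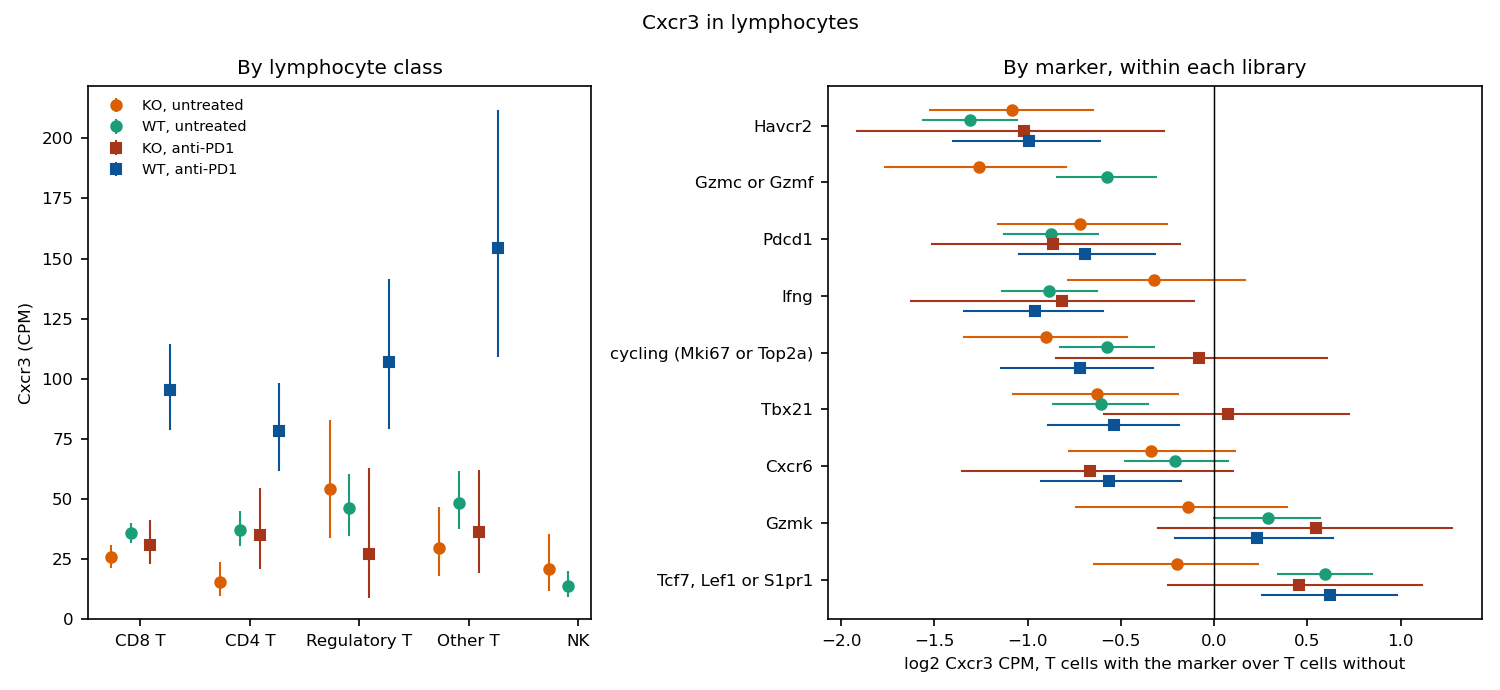
Left, Cxcr3 level (CPM) by lymphocyte class and library, with 95% Poisson intervals. Right, log2 ratio of Cxcr3 CPM in T cells with a marker UMI over T cells without, by library, with 95% counting intervals and a line at 0. The anti-PD1 WT library is highest in each T cell class, and the Havcr2, Pdcd1, Ifng, cycling and Cxcr6 points lie below 0 in all 4 libraries.

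Anti-PD1 libraries were set against untreated libraries within each genotype, which also compares day 25 with day 20 and one kind of library with another. In monocytes and macrophages Cxcl9 was lower after anti-PD1, by a log2 difference of -0.71 (-0.74 to -0.67) in KO and -0.81 (-0.83 to -0.79) in WT, and Cxcl10 by -0.55 (-0.62 to -0.48) in KO and -0.76 (-0.78 to -0.73) in WT. The median gene of these cells differed by -0.23 in KO and -0.17 in WT, and that of microglia by -0.12 in KO and -0.22 in WT. Neither ligand reached a 2-fold change in either genotype, while 14.8% of genes in KO and 16.5% in WT were at least 2-fold lower. In microglia Cxcl10 went opposite ways, -1.20 (-1.33 to -1.07) in KO and 0.42 (0.34 to 0.50) in WT, and Cxcl9 was lower in both, -2.97 (-3.22 to -2.73) in KO and -1.82 (-1.98 to -1.67) in WT. There 8.32% of genes in KO and 15.2% in WT were at least 2-fold lower. Cxcr3 of CD8 T cells differed by 0.28 (-0.25 to 0.77) in KO and 1.41 (1.09 to 1.73) in WT, and 9.96% of genes were at least 2-fold higher in WT.

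Among 11 neighbours of the axis (other ligands, receptors and the peptidase Dpp4), 8 were measured in monocytes and macrophages of the untreated pair. Of these 1 was at least 2-fold lower in KO, 0 higher, and their median log2 difference was -0.52 against 0.09 for all genes. In the anti-PD1 pair 2 of 8 were lower and 2 higher, with a median of -0.02 against 0.15. The share of all genes was 4.29% lower and 4.85% higher untreated, and 7.35% and 11.5% after anti-PD1. Ccl5, a chemokine that draws T cells, was the gene lower in both pairs: it stood at 261 CPM in KO and 1241 CPM in WT without treatment (log2 -2.25), and at 1225 CPM in KO and 4961 CPM in WT after anti-PD1 (log2 -2.02). Ccl3 and Ccl4, further CC chemokines, differed by -0.35 and -0.93 without treatment and by 0.16 and 0.22 after anti-PD1. Cxcl16, the ligand of CXCR6, differed by 0.01 and -0.54. Pf4 (Cxcl4), a platelet chemokine that human CXCR3 can bind, stood at 71.4 CPM in KO and 91.2 CPM in WT without treatment, and at 333 CPM in KO and 52.7 CPM in WT after anti-PD1. The peptidase gene Dpp4 (-1.21) was the other gene at least 2-fold lower after anti-PD1, and Pf4 (2.66) and Cxcr6 (2.03), the receptor of CXCL16, were the higher ones.

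Of 18 inducers and signalling genes, 18 were measured in monocytes and macrophages of the untreated pair, with 3 at least 2-fold lower and 0 higher in KO, where 4.29% of all genes were lower and 4.85% higher, and a median of -0.49 against 0.09 for all genes. In the anti-PD1 pair 16 were measured, with 6 lower and 1 higher, where 7.35% of all genes were lower and 11.5% higher, and a median of -0.57 against 0.15. Stat2, which type I interferon signalling needs, differed by -2.15 without treatment and -2.17 after anti-PD1. Socs1, a feedback inhibitor of these receptors, differed by -1.44 and -2.32, and Cd40, a costimulatory receptor, by -1.33 and -1.19. These 3 were lower in both pairs. Irf1, an early target of interferon gamma, differed by -0.71 and -1.16, and Irf9, a partner of STAT2, by -0.90 and -1.27. The receptor subunit of interferon gamma Ifngr1 differed by 0.62 and -0.30, in opposite directions, and the kappa-B subunit Rela by 0.09 and -0.15. The one gene at least 2-fold higher after anti-PD1 was Nfkb1 (1.03), of the same factor, which had differed by 0.08 without treatment.

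Ifng itself, the gene of interferon gamma, was held mainly by T cells, which had 86.2% of its UMIs in untreated KO and 85.9% in untreated WT, and 86.7% in anti-PD1 KO and 77.5% in anti-PD1 WT. It stood at 697 CPM in KO and 511 CPM in WT T cells without treatment, and at 384 CPM in KO and 776 CPM in WT T cells after anti-PD1. The genotype order of Ifng was thus opposite in the untreated and anti-PD1 pairs, higher in KO without treatment and lower in KO after anti-PD1. A link between Ifng and the ligand levels was not tested. Ifnb1, the gene of interferon beta, had 67 UMIs in KO and 25 in WT microglia without treatment, and 2 in KO and 45 in WT microglia after anti-PD1.

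Other CXC chemokines differed between the pairs in direction. Of 6, 4 were measured in untreated monocytes and macrophages, with 0 at least 2-fold lower and 2 higher in KO, Cxcl1 (1.19) and Cxcl3 (1.61), which draw neutrophils. After anti-PD1, 5 were measured and 3 were at least 2-fold lower in KO, Cxcl1 (-1.18), Cxcl2 (-1.69) and Cxcl3 (-1.35), while Cxcl2 had differed by 0.15 without treatment. Of all genes in these cells, 4.29% were at least 2-fold lower and 4.85% higher untreated, and 7.35% lower and 11.5% higher after anti-PD1. In microglia, Cxcl13, which draws B cells through CXCR5, had 3 UMIs in KO and 357 in WT without treatment, and 15 in KO and 730 in WT after anti-PD1.

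Of 11 regulators and partners of Cxcr3 in T cells, 11 were measured in untreated CD8 T cells, with 0 at least 2-fold lower and 1 higher in KO (1.42% of all genes were higher), and a median of 0.03 against 0.09 for all genes. The higher gene was Ccr7, a lymph node homing receptor, at 35.6 CPM in KO and 8.17 CPM in WT. Tbx21 stood at 68.2 CPM in both KO and WT, and Eomes, a related factor, at 33.7 CPM in KO and 40.9 CPM in WT. After anti-PD1, 9 were measured, with 0 lower and 4 higher in KO, against 9.32% of all genes higher: Stat4 (1.29) and Il12rb2 (1.16) of interleukin 12 signalling, Cxcr4 (1.34) and Ccr7 (1.33). Tbx21 differed by -0.14 there.

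The genes whose levels ran most like each member were read over 37 sums of a class in a library with at least 50 cells, as Pearson correlations of log2(CPM + 1) among 11016 genes. These sums share libraries and cells of different depth, so the values are a description. Cxcl9 ran most like Slamf8 (0.90) and Batf2 (0.90), followed by Hfe, Pgap2 and Atox1 at 0.86 to 0.87. Cxcl10 ran most like Il27 (0.80), which encodes a subunit of interleukin 27, followed by Slc31a1, Fcgr1, Il18bp and Lst1 at 0.74 to 0.78. The ligands ran less like each other (0.62) than each ran like these genes. Cxcr3 ran most like Traf3ip2 (0.93), followed by Dkkl1, Cep170b, Il27ra and Cers4 at 0.90 to 0.92.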

How the data were processed

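Single-cell RNA was counted in 4 libraries, 1 per group. The deposited matrices hold raw UMI counts per gene and barcode that the authors made with Cell Ranger, version 3.1.0 for the untreated and 7.2.0 for the anti-PD1 libraries per the file headers. The builds mm10 and GRCm38 come from the submitters' processing notes, and settings for introns and cell calling are not given in the sources used here. Gene positions are those of GENCODE vM21 and promoters those of RefSeq, both on GRCm38.

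The 30406 genes common to all libraries held 99.5% to 99.9% of UMIs. A cell needed 200 or more genes and no more than 10% of its counts from mitochondrial genes. The mitochondrial limit left out 24.2% of untreated KO, 21.0% of untreated WT, 3.30% of anti-PD1 KO and 0.693% of anti-PD1 WT barcodes. Scrublet (scanpy 1.11.5) called at most 1 doublet per library by its own threshold, so the cells with the highest scores were removed at 0.8% per 1000 barcodes: 83, 280, 594 and 722 in that order. Lineages are gates on summed raw UMIs of marker genes, with minimums of 3 to 10 UMIs. Cells that passed gates of more than 1 lineage were set apart. T cells were split by Cd8a and Cd8b1, Cd4 and Foxp3. The gates rest on markers and not on the authors' cell types, which were not used here.

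Counts were summed per class and library and given as CPM of that sum, with exact Poisson intervals. Shares have exact Clopper-Pearson intervals, and KO/WT and anti-PD1/untreated log2 differences used a pseudocount of 0.5 counts and exact binomial intervals of the rate ratio. A gene counted as measured in a pair with at least 50 UMIs there, and 2-fold was the size used for counts of genes. The total count of a class sets its precision, and counts of 0 are given with the limit that 3 counts allow. Shares were also read after thinning each cell to 1000 UMIs, with shallower cells left out. Only the log2 differences and their intervals were tested on simulated data, Poisson counts at the totals of untreated monocytes and macrophages. These hold counting error alone, so they cannot show how the intervals fare with other spread. Gates, cell filters, doublet removal and thinning were not simulated. The alternatives were other cell filters, doublets kept, stricter gates, mixed-lineage cells assigned, barcodes found in more than 1 library left out, TMM factors (edgeR 4.0.16), DESeq2 1.42.0 size factors, other totals, equal cell weights and thinning. Python 3.11.15, numpy 2.4.6, scipy 1.17.1 and R 4.3.3 were used.

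The members, gene lists, markers and gates were chosen with earlier results of these data known. The genes named are the 3 members, the members of 4 lists (neighbours of the axis, inducers and signalling genes, other CXC chemokines, and regulators and partners of Cxcr3), and the 5 genes most correlated with each member. Some members of the lists are counted but not reported by name here.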

Additional observations from a re-analysis of the deposited data

Results flagged for a closer look

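The log2 difference between KO and WT had opposite signs without treatment and after anti-PD1 for Cxcl9 in 2 classes, and this contrast between the pairs was not tested. In T cells it was -1.36 without treatment, with 3.54 CPM in KO and 9.24 CPM in WT, and 0.74 after anti-PD1, with 31.0 CPM in KO and 18.5 CPM in WT. The anti-PD1 value was -0.34 with high doublet scores kept and -0.17 with mixed-lineage cells assigned to their stronger lineage, so its sign rests on these choices. A single cell held 39.8% of the untreated WT UMIs. In cells that passed the gates of more than 1 lineage it was -0.52 without treatment, with 188 CPM in KO and 270 CPM in WT, and 0.29 after anti-PD1, with 471 CPM in KO and 384 CPM in WT. In the 69 KO and 87 WT cells of mixed lineage without treatment, 13.04% of KO and 35.6% of WT cells held a Cxcl9 UMI. After anti-PD1 a Cxcl9 UMI was seen in 38.9% of 144 KO and 53.4% of 234 WT cells, so the share of such cells was lower in KO in both pairs.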

How the results depend on the processing

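No paired analysis was possible because each group had 1 library. For the same reason no library could be left out of a group. Log2 differences of the 3 genes in monocytes and macrophages, in CD8 T cells and over all cells, 16 in all, were recomputed under 196 alternatives. Of these 110 stayed within the counting interval, 86 left it, 0 changed sign, and in 0 did the fold change move by over 1.5 times. The values outside the interval are as follows, in monocytes and macrophages for anti-PD1/untreated. With TMM factors, KO/WT was -0.49 (Cxcl9) and -2.58 (Cxcl10) in monocytes and macrophages, and -0.21 (Cxcl9) over all cells for the untreated pair. It was -0.45 (Cxcl9) and -2.44 (Cxcl10) in monocytes and macrophages, and -0.73 (Cxcl9) and -2.43 (Cxcl10) over all cells for the anti-PD1 pair. Anti-PD1/untreated was -0.48 in KO and -0.63 in WT (Cxcl9), and -0.33 in KO and -0.58 in WT (Cxcl10). With DESeq2 size factors, KO/WT was -0.49 (Cxcl9) and -2.59 (Cxcl10) in monocytes and macrophages, and -0.21 (Cxcl9) over all cells for the untreated pair. It was -0.45 (Cxcl9) and -2.45 (Cxcl10) in monocytes and macrophages, and -0.74 (Cxcl9) and -2.44 (Cxcl10) over all cells for the anti-PD1 pair. Anti-PD1/untreated was -0.47 in KO and -0.63 in WT (Cxcl9), and -0.32 in KO and -0.58 in WT (Cxcl10). Less the median of all genes, KO/WT was -0.49 (Cxcl9) and -2.59 (Cxcl10) in monocytes and macrophages, and -0.21 (Cxcl9) over all cells for the untreated pair. It was -0.46 (Cxcl9) and -2.45 (Cxcl10) in monocytes and macrophages, and -0.74 (Cxcl9) and -2.44 (Cxcl10) over all cells for the anti-PD1 pair. Anti-PD1/untreated was -0.48 in KO and -0.64 in WT (Cxcl9), and -0.32 in KO and -0.59 in WT (Cxcl10). With totals that left out mitochondrial, ribosomal and receptor segment genes, KO/WT was -0.34 (Cxcl9) and -2.44 (Cxcl10) in monocytes and macrophages for the untreated pair. It was -0.19 (Cxcl9) and -2.19 (Cxcl10) in monocytes and macrophages, and -0.39 (Cxcl9) and -2.10 (Cxcl10) over all cells for the anti-PD1 pair. Anti-PD1/untreated was -0.77 in KO and -0.92 in WT (Cxcl9), and -0.86 in WT (Cxcl10). As a mean over cells of equal weight, KO/WT was -0.50 (Cxcl9) in monocytes and macrophages, and -0.43 (Cxcl9) and -2.01 (Cxcl10) over all cells for the untreated pair. It was -0.39 (Cxcl9) and -2.46 (Cxcl10) in monocytes and macrophages, and -0.62 (Cxcl9) and -2.37 (Cxcl10) over all cells for the anti-PD1 pair. Anti-PD1/untreated was -0.50 in KO and -0.61 in WT (Cxcl9), and -0.77 in KO and -0.85 in WT (Cxcl10). With cells thinned to 1000 UMIs, KO/WT was -0.57 (Cxcl9) in monocytes and macrophages, and -0.47 (Cxcl9) over all cells for the untreated pair. It was -0.33 (Cxcl9) and -2.48 (Cxcl10) in monocytes and macrophages, and -0.58 (Cxcl9), -2.40 (Cxcl10) and -0.64 (Cxcr3) over all cells for the anti-PD1 pair. Anti-PD1/untreated was -0.43 in KO and -0.67 in WT (Cxcl9), and -0.83 in KO and -0.82 in WT (Cxcl10). Without the 10 cells with most UMIs of the gene in each library, KO/WT was -0.53 (Cxcl9) and -2.67 (Cxcl10) in monocytes and macrophages, and -0.28 (Cxcl9) and -2.05 (Cxcl10) over all cells for the untreated pair. It was -0.35 (Cxcl9) and -2.43 (Cxcl10) in monocytes and macrophages, and -0.54 (Cxcl9) and -2.29 (Cxcl10) over all cells for the anti-PD1 pair. Anti-PD1/untreated was -0.54 in KO and -0.73 in WT (Cxcl9), and -0.46 in KO and -0.70 in WT (Cxcl10). With stricter cell filters (500 or more genes, no more than 5% mitochondrial counts), KO/WT was -0.67 (Cxcl9) in monocytes and macrophages, and -0.35 (Cxcl9) and -2.11 (Cxcl10) over all cells for the untreated pair. Anti-PD1/untreated was -0.44 in KO (Cxcl9), and -0.48 in KO (Cxcl10). With high doublet scores kept, KO/WT was -0.35 (Cxcl9) in monocytes and macrophages, and -0.53 (Cxcl9) over all cells for the anti-PD1 pair. Anti-PD1/untreated was -0.75 in KO (Cxcl9). Without a cell filter, KO/WT was -1.89 (Cxcl10) over all cells for the untreated pair. With a stricter gate, anti-PD1/untreated was -0.71 in WT (Cxcl10). Of 258 alternatives for 20 further differences, in other classes, 209 stayed within the interval, 46 left it with the same sign and 3 changed sign. Cxcl9 in untreated neutrophils was 0.11 with high doublet scores kept, and Cxcl9 in T cells of the anti-PD1 pair was -0.34 with high doublet scores kept and -0.17 with mixed-lineage cells assigned to their stronger lineage. The cause was not tested. In 17 the fold change moved by over 1.5 times. For Cxcl9 in microglia it ran from -3.74 to -0.47 in the untreated and from -1.91 to -1.51 in the anti-PD1 pair, and for Cxcl10 from -0.83 to -0.05 in the untreated pair. Cxcr3 of CD4 T cells ran from -3.34 to -0.82 untreated and from -1.73 to -0.18 after anti-PD1. The lowest values of Cxcl9 in untreated microglia and of Cxcr3 in untreated CD4 T cells are those without the 10 cells with most UMIs of the gene. Depth limits Cxcr3 in classes that hold under 50 of its UMIs, and a class with 0 UMIs may hold it below the limit that 3 counts allow. The alternatives less the median of all genes and without the 10 highest cells were chosen after seeing the data.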
